A study of Antheraea pernyi with 6 samples.

Results

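Pheromone-binding proteins (PBPs) and general odorant-binding proteins (GOBPs) are small soluble carriers of the moth antenna. In the antennal transcriptome of Antheraea pernyi, the Chinese oak silkmoth, 5 of 16458 genes were taken by their identifiers, which stand close together in the numbering of the gene models. They are GWHGABGR012196, with a best hit to pheromone-binding protein 1 of Antheraea pernyi (PBP1), GWHGABGR012195, with a hit to pheromone binding protein 3 of the same species (PBP3), GWHGABGR012197, with a hit to a pheromone binding protein 1 of another moth, Conopomorpha sinensis, and GWHGABGR012186 and GWHGABGR012194, with hits to general odorant-binding proteins 1 and 2 of Antheraea pernyi (GOBP1 and GOBP2). GWHGABGR012197 is called by its identifier here, since its hit is to a distant species. The authors' gene ontology terms set it apart from PBP1 and PBP3 as well. PBP1 and PBP3 carry the terms pheromone binding and response to pheromone. GWHGABGR012197 carries odorant binding and sensory perception of smell, as GOBP1 and GOBP2 do. In the genomes of several moths the PBP and GOBP genes lie together in a cluster. No coordinates are given here for these gene models, so closeness rests on identifiers alone.

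Carriers of this family are secreted by support cells into the lymph that bathes the dendrites of olfactory neurons. They take up hydrophobic odorants that enter through pores of the sensillum wall and bring them to receptors in the dendrite membrane. PBPs are best known from the long sensilla with which male moths detect the sex pheromone of females, and in many moths they are more abundant in male antennae. GOBPs are best known from sensilla that respond to plant volatiles and occur in both sexes.

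Antennae of adult Antheraea pernyi were profiled in 3 libraries labelled male and 3 labelled female. No treatment, age or strain is given, and nothing says whether the libraries of a label came from separate animals, so the p-values speak only of the spread among these libraries, part of which may be technical. Levels are in FPKM, fragment numbers divided by the length of the gene model and the counted reads of the library. Library totals, worked out from the step size of the FPKM values, lay between 9392242 and 9606755 reads in male-labelled libraries and between 10851262 and 11180175 in female-labelled ones. Pearson correlations of log2(FPKM + 1) across genes were 0.9844 to 0.986 within a label and 0.9502 to 0.952 across labels.

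The direction of the pheromone carriers is the reverse of that known from many moths, and reads of a gene model named for a female isoform also lay under the other label. The model with a hit to a female-specific doublesex isoform (GWHGABGR017605), a sex determination factor, had 5, 3 and 8 reads in male-labelled libraries and 0 in each female-labelled one. The models with hits to male-specific doublesex isoforms had 8 reads over the 3 male-labelled and 3 over the 3 female-labelled libraries (GWHGABGR017603), and 13 reads over the male-labelled and 6 over the female-labelled ones (GWHGABGR017606). These models were chosen after their values were seen. A true difference between the sexes and exchanged labels cannot be told apart, so every direction here is one between labels.

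All 6 libraries held transcripts of olfactory tissue. Orco, the coreceptor with which odorant receptors form ion channels, is listed as putative chemosensory receptor 2 (GWHGABGR013501) and lay between 174.1 and 177.2 FPKM in male-labelled libraries and between 458.3 and 469.6 FPKM in female-labelled ones. By limma at an adjusted p of 0.05, 27.8% of all tested genes were higher and 9.03% lower in male-labelled libraries on the deposited scale, and 14.3% and 17.6% after median-of-ratios rescaling. Of 14 tested hemocyte markers, 11 were higher and 0 lower in male-labelled libraries, and 8 and 0 on the rescaled values. Their summed level was 2469 to 2571 FPKM in male-labelled and 1523 to 1596 FPKM in female-labelled libraries. Most of it came from a hemolin gene (GWHGABGR020071), at 2064 ± 66.5 FPKM in male-labelled and 1303 ± 38.9 FPKM in female-labelled libraries (SD, n = 3 each). The list takes in integrin beta subunits and prophenoloxidase-activating proteinases by name. Prophenoloxidase-2 (GWHGABGR016003) itself was not called (limma adjusted p = 0.973). Of 32 tested fat body and hemolymph markers, 16 were higher and 2 lower in male-labelled libraries, and 11 and 2 on the rescaled values. Their summed level was 1304 to 1365 FPKM in male-labelled and 1210 to 1264 FPKM in female-labelled libraries. Most of the 32 carry microvitellogenin names, matched by the word vitellogenin, and none is named vitellogenin itself. Apolipophorin-III (GWHGABGR013340), the most abundant of them, was lower in male-labelled libraries, at 410 ± 7.39 against 543 ± 17.7 FPKM (SD, n = 3 each). Of 14 tested genes matched by muscle marker names, 6 were higher and 1 lower in male-labelled libraries, and 2 and 1 on the rescaled values. Together they held 147.2 to 170.0 FPKM in male-labelled and 122.3 to 131.3 FPKM in female-labelled libraries. The match took in myosin heavy chains named non-muscle. GWHGABGR007665, GWHGABGR007666 and GWHGABGR013541, so named, were among those called higher on the deposited scale. GWHGABGR006087, named myosin heavy chain 95F without the word muscle, was called higher too (limma adjusted p = 0.00376, and 0.0499 on the rescaled values). These counts thus do not speak of muscle alone. The part of these 3 lists in the results below was not tested. Fewer cells of a type and less RNA per cell cannot be told apart in such bulk libraries.

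The 2 pheromone carriers were far lower in male-labelled libraries, while both GOBPs were higher there and GWHGABGR012197 had the smallest change. All 5 genes passed the filter on low values (a mean of at least 0.5 FPKM) and limma's test at an adjusted p of 0.05, on log2(FPKM + 1) with Benjamini-Hochberg adjustment over 11590 genes, of which 36.9% passed. On the deposited scale 3 of the 5 were called higher in male-labelled libraries, as were 27.8% of all tested genes, and 2 were called lower there, as were 9.03%. The FPKM values of the labels did not overlap for any of the 5, as for 50.1% of all tested genes. Calls and separated labels were thus common in the table, and the 5 genes are described below by the size of their differences.

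PBP1, the carrier best studied in Antheraea silkmoths, stood at 1359.9, 1179 and 1281 FPKM in male-labelled libraries, against 93351, 94059 and 90139 FPKM in female-labelled ones. Its mean was 1273 ± 90.6 FPKM in male-labelled and 92516 ± 2089 FPKM in female-labelled libraries (SD, n = 3 each), 72.7-fold higher in female-labelled ones. The log2 fold change, male-labelled minus female-labelled, was -6.18 (SE 0.0462, limma adjusted p = 3.33e-11). The values rested on 3432 to 3870 reads in male-labelled and 296370 to 318634 reads in female-labelled libraries. PBP1 was the most abundant gene of the table in each female-labelled library and stood at ranks 177, 203 and 195 in male-labelled replicates 1, 2 and 3. Among all 11590 tested genes its change was the eighth largest in size. Among the 260 tested genes with a mean of at least 1000 FPKM in a label, of which 79.2% were called, it ranked 3.

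PBP3, a carrier with binding preferences of its own in this genus, stood at 1094.8, 1049.98 and 1101.6 FPKM in male-labelled libraries, against 11982, 11719 and 11487 FPKM in female-labelled ones. The labels lay about an order of magnitude apart, and the male-labelled values were within a narrow range. The means were 1082 ± 28.0 FPKM in male-labelled and 11729 ± 248 FPKM in female-labelled libraries (SD, n = 3 each), 10.8-fold higher in female-labelled ones. The log2 fold change was -3.44 (SE 0.0276, limma adjusted p = 3.33e-11). Its rank by level was 216 to 225 in male-labelled libraries and 12 to 14 in female-labelled ones. By size of change it ranked 50 among all tested genes and 10 among the 260 abundant ones.

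GWHGABGR012197, whose identifier follows that of PBP1, behaved otherwise. It stood at 503.1, 442.5 and 474.3 FPKM in male-labelled libraries, against 368.6, 366.6 and 348.1 FPKM in female-labelled ones. It was the lowest of the 5 in every library, and its male-labelled values all lay above its female-labelled ones. The means were 473 ± 30.3 FPKM in male-labelled and 361 ± 11.3 FPKM in female-labelled libraries (SD, n = 3 each), with a log2 fold change of 0.39 (SE 0.0516, limma adjusted p = 0.000548). That change is to be read against a median of 0.23 over all tested genes. After median-of-ratios rescaling, which moved that median to 0.02, its log2 fold change was 0.13 and did not pass (limma adjusted p = 0.0688).

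**Figure D1:**
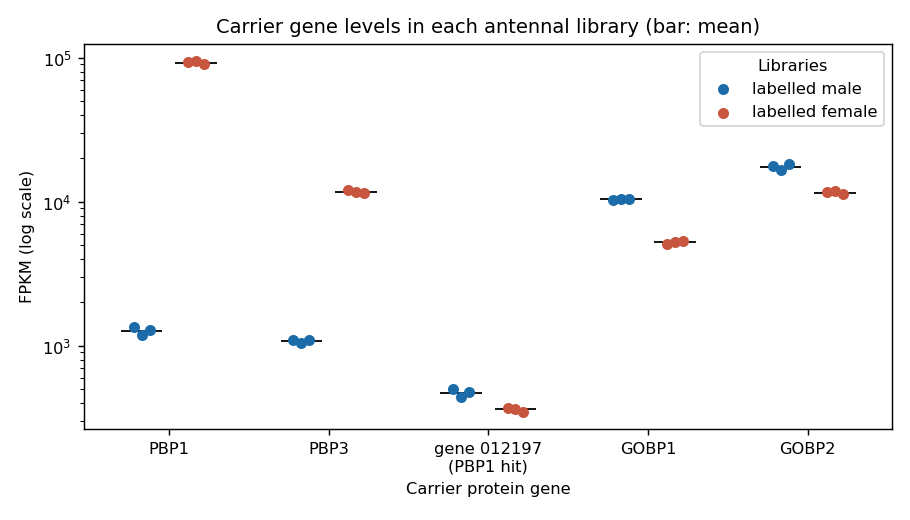
FPKM on a log axis of the 5 carrier genes in each library, with libraries labelled male in blue at the left and those labelled female in red at the right of each gene, and bars at the means of 3 libraries. PBP1 and PBP3 lie far lower in male-labelled libraries, while GOBP1, GOBP2 and GWHGABGR012197 lie higher there.

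GOBP1, a carrier of general odorants, stood at 10250.4, 10435 and 10487 FPKM in male-labelled libraries, against 5096, 5264 and 5359 FPKM in female-labelled ones. Every male-labelled value lay far above any female-labelled value. The means were 10391 ± 124 FPKM in male-labelled and 5239 ± 133 FPKM in female-labelled libraries (SD, n = 3 each), a ratio of 1.98, and the log2 fold change was 0.99 (SE 0.0237, limma adjusted p = 1.08e-08).

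GOBP2, its close relative, stood at 17813, 16658 and 18166 FPKM in male-labelled libraries, against 11664, 11805 and 11235 FPKM in female-labelled ones. The lowest male-labelled library still lay well above the highest female-labelled one. The means were 17546 ± 789 FPKM in male-labelled and 11568 ± 297 FPKM in female-labelled libraries (SD, n = 3 each), a ratio of 1.52, and the log2 fold change was 0.60 (SE 0.0339, limma adjusted p = 2.72e-06). GOBP2 was the sixth most abundant gene of the table in every male-labelled library and ranked 13 to 14 in female-labelled ones. GOBP1 ranked 12 to 13 in male-labelled and 30 to 33 in female-labelled libraries. By size of change GOBP1 and GOBP2 ranked 51 and 77 among the 260 abundant genes.

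**Figure D2:**
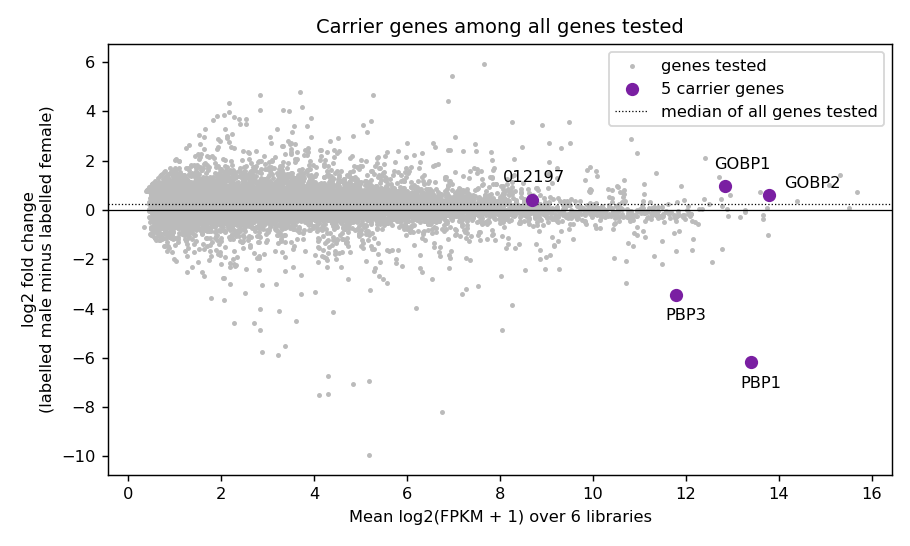
The log2 fold change, male-labelled minus female-labelled, against mean log2(FPKM + 1) over 6 libraries for 11590 tested genes in grey and the 5 carrier genes in purple, with a dotted line at the median of 0.23. PBP1 at -6.18 and PBP3 at -3.44 lie below nearly all genes of like abundance, and GOBP1, GOBP2 and GWHGABGR012197 lie above the dotted line.

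The spread between libraries of a label, as far as 3 libraries give it, exceeded the counting error of the reads for all 5 genes in both labels. The coefficient of variation of PBP1 was 7.12% in male-labelled and 2.26% in female-labelled libraries, where its read numbers alone would give 1.66% and 0.18%. For GOBP1 it was 1.2% in male-labelled and 2.54% in female-labelled libraries, against 0.449% and 0.586% from counting. As a ratio of the spread to the counting error, the lowest was that of GWHGABGR012197 in female-labelled libraries, at 3.13% against 2.25% from 1881 to 2041 reads per library.

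Within male-labelled libraries the order of levels was GOBP2, GOBP1, PBP1, PBP3 and GWHGABGR012197, and no neighbours in that order overlapped. Within female-labelled libraries it was PBP1, PBP3, GOBP2, GOBP1 and GWHGABGR012197, and the values of PBP3 and GOBP2 overlapped. PBP3 over GOBP2 was 1.03, 0.993 and 1.02 in female-labelled replicates 1, 2 and 3, so these neighbours could not be put in order. The step between PBP1 and PBP3 in male-labelled libraries depends on the length by which reads are divided. The recovered gene model of PBP1 has 303 bases, while those of the other 4 genes have 495 to 504, all multiples of 3. By reads, PBP1 had 0.76, 0.687 and 0.712 times the reads of PBP3 in male-labelled replicates 1, 2 and 3, against 4.77, 4.91 and 4.80 times in female-labelled ones. Each recovered length is the shortest that gives whole reads, so a longer model with read numbers larger by the same whole factor would give the same FPKM values. Read ratios between genes would then change, while FPKM ratios and ratios between labels would not. In female-labelled replicate 1 the recovered reads of all genes summed to 10990516, against a library total of 11030594. Doubling the 312004 reads of PBP1 or the 65424 reads of PBP3 there would exceed that total.

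Ratios between genes of the same library do not depend on how libraries were scaled. PBP1 over PBP3 was 1.24, 1.12 and 1.16 in male-labelled replicates 1, 2 and 3, against 7.79, 8.03 and 7.85 in female-labelled ones. The 2 pheromone carriers thus did not move by the same factor, with a difference in mean log2 ratio of -2.75 between labels. PBP1 over GOBP2 was 0.0763, 0.0708 and 0.0705 in male-labelled libraries, against 8.003, 7.97 and 8.02 in female-labelled ones. GOBP1 over GOBP2 moved much less. It was 0.575, 0.626 and 0.577 in male-labelled libraries, against 0.437, 0.446 and 0.477 in female-labelled ones, a difference of 0.39 on the log2 scale. The smallest difference was that of GWHGABGR012197 over GOBP2, at 0.0282, 0.0266 and 0.0261 in male-labelled libraries against 0.0316, 0.031 and 0.031 in female-labelled ones, a difference of -0.21 on the log2 scale.

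Each of the 10 ratios gave p = 0.1 in a 2-sided exact permutation test over the 6 libraries, and 0.1 after Benjamini-Hochberg adjustment over the 10. This is the smallest p that 3 libraries against 3 allow, so no ratio could pass 0.05. Of all ratios between a member and another tested gene, 72.9% had labels that did not overlap in the same way, so the separation of the labels is common among ratios and the sizes are what the 10 pairs differ in.

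**Figure D3:**
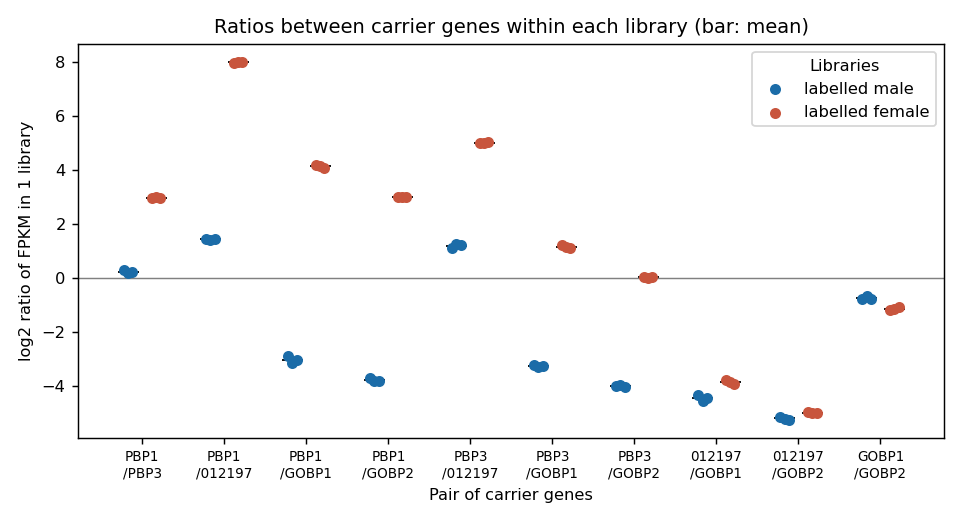
The log2 ratio of FPKM between each pair of carrier genes within a library, male-labelled in blue at the left and female-labelled in red at the right, with bars at the means of 3 libraries. Pairs that set a pheromone carrier against another gene lie far apart between labels, such as PBP1 over GOBP1 with a difference of -7.17, while GOBP1 over GOBP2 (0.39) and GWHGABGR012197 over GOBP2 (-0.21) lie close.

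The 5 genes together held 2.31, 2.24 and 2.34% of total FPKM in male-labelled replicates 1, 2 and 3, against 9.05, 9.13 and 8.85% in female-labelled ones. As a share of counted reads they held 1.53, 1.47 and 1.56% in male-labelled and 4.28, 4.30 and 4.15% in female-labelled libraries. PBP1 and PBP3 made up 0.176 ± 0.0076% of total FPKM in male-labelled and 7.74 ± 0.132% in female-labelled libraries (SD, n = 3 each). GOBP1 and GOBP2 made up 2.09 ± 0.0438% in male-labelled and 1.25 ± 0.0153% in female-labelled libraries. The pair of GOBPs exceeded the pair of PBPs by 11.4 to 12.2 times in male-labelled libraries, and the PBPs exceeded the GOBPs by 6.13 to 6.29 times in female-labelled ones. The most abundant genes of male-labelled libraries by mean were GWHGABGR001098, an uncharacterized protein, GWHGABGR002941, circadian clock-controlled protein-like, and GWHGABGR001105, sensory protein 2, while PBP1, the unnamed GWHGABGR013872 and GWHGABGR001098 led in female-labelled ones.

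FPKM values are relative to library totals, which include these abundant genes. On the deposited scale 3227 genes were higher and 1047 lower among male-labelled libraries, with a median log2 fold change of 0.23. Rescaled by the summed FPKM of all genes except these 5, the median was 0.16 (2546 higher and 1329 lower). That sum is not the total of counted reads. The 5 genes weigh more in it, at 9.01% of FPKM against 4.25% of reads in female-labelled libraries. After median-of-ratios rescaling the median was 0.02 (1655 higher and 2036 lower). On that last scale 31.8% of tested genes were called, 14.3% higher and 17.6% lower in male-labelled libraries. Of the 5 carrier genes 4 were then called. Their log2 fold changes were -6.44 for PBP1, -3.70 for PBP3, 0.73 for GOBP1 and 0.34 for GOBP2 (limma adjusted p = 5.8e-12, 5.8e-12, 1.64e-07 and 3.26e-05).

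**Figure D4:**
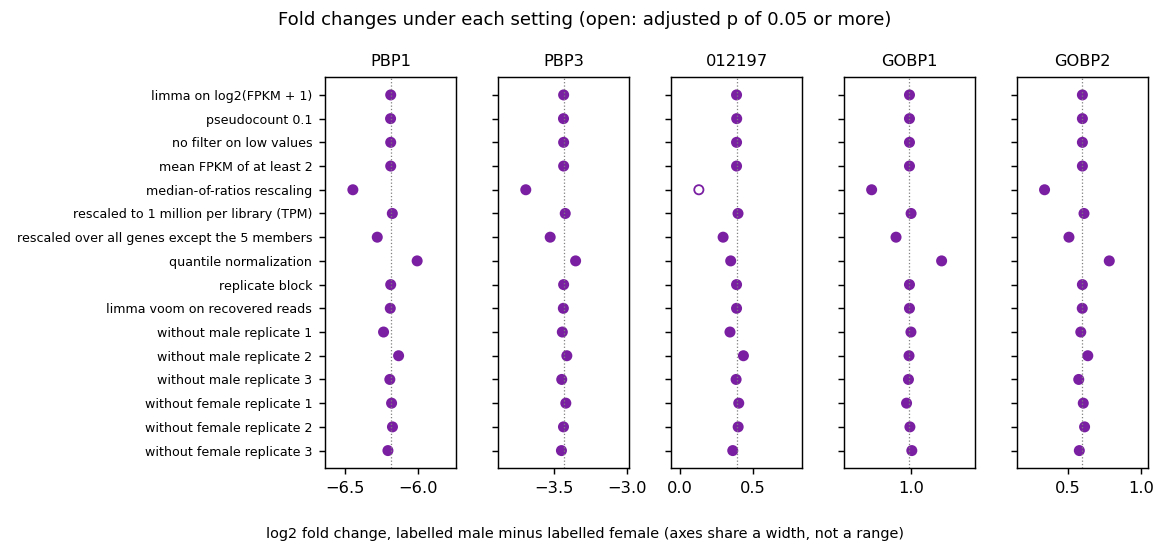
The log2 fold change, male-labelled minus female-labelled, of each carrier gene under each setting, on axes of the same width but different range, with open circles where the adjusted p was 0.05 or more. GWHGABGR012197 after median-of-ratios rescaling (0.13) is the open circle, and the other 4 genes stay filled, PBP1 between -6.44 and -6.003.

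The other soluble carriers did not show changes of the size of PBP1. Of all tested genes 27.8% were higher and 9.03% lower in male-labelled libraries, and 14.3% and 17.6% on the median-of-ratios scale. Of 13 other odorant-binding proteins tested, 9 were higher and 1 lower in male-labelled libraries, with a median of 0.37 beside 0.23 for all genes. On the median-of-ratios scale 5 of the 13 were higher and 2 lower. Without female replicate 3, or with quantile normalization, 2 of them were lower. Their summed level was 12795 to 13959 FPKM in male-labelled and 14210 to 14451 FPKM in female-labelled libraries. The 5 members together thus held 2.26 to 2.33 times as much FPKM as the other odorant-binding proteins in male-labelled libraries, and 8.21 to 8.62 times as much in female-labelled ones. The most abundant of the others, general odorant-binding protein 28a-like (GWHGABGR014087), averaged 8128 ± 414 FPKM in male-labelled and 5926 ± 81.9 FPKM in female-labelled libraries (SD, n = 3 each).

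The gene called lower on the deposited scale was antennal binding protein X (GWHGABGR018897), a carrier named from this species. It stood at 596.5, 574.6 and 645.8 FPKM in male-labelled libraries, against 4638, 4743 and 4759 FPKM in female-labelled ones. Its log2 fold change was -2.96 (SE 0.0419, limma adjusted p = 5.52e-10), the nearest to that of PBP3 in the family. It is also 1 of 5 genes to which the authors gave pheromone terms, a set looked at after values were seen. Besides PBP1, PBP3 and this gene, the set holds odorant-binding protein 14 (GWHGABGR014086), at 1193 ± 37.3 FPKM in male-labelled and 969 ± 36.8 FPKM in female-labelled libraries (log2 fold change 0.30, limma adjusted p = 0.000409; 0.04 and not called after median-of-ratios rescaling). The fifth, transmembrane protein 145 (GWHGABGR006409), averaged 2.79 ± 0.422 FPKM in male-labelled and 2.43 ± 0.506 FPKM in female-labelled libraries (limma adjusted p = 0.591).

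The receptor side of the pathway was read beside the carriers. Orco averaged 176 ± 1.58 FPKM in male-labelled and 465 ± 5.9 FPKM in female-labelled libraries (log2 fold change -1.40, limma adjusted p = 1.43e-08), a smaller change than that of PBP1 or PBP3. Sensory neuron membrane protein 2 (GWHGABGR005182), known from support cells of moth sensilla, averaged 2427 ± 41.4 FPKM in male-labelled and 3042 ± 5.49 FPKM in female-labelled libraries (log2 fold change -0.33, limma adjusted p = 1.1e-05). A second model of that protein (GWHGABGR000255) averaged 0.647 ± 0.34 FPKM in male-labelled and 0.654 ± 0.25 FPKM in female-labelled libraries and did not pass (limma adjusted p = 0.969). Over all tested genes the shares higher and lower in male-labelled libraries were 27.8% and 9.03%, and 14.3% and 17.6% on the median-of-ratios scale. Of 44 tested odorant receptors, 17 were higher and 11 lower in male-labelled libraries, with a median of 0.50 beside 0.23 for all genes. On the median-of-ratios scale 12 of the 44 were higher and 11 lower. With quantile normalization 10 were higher, and with a filter at a mean of 2 FPKM, which tests fewer genes, 6 were lower.

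Among these receptors, olfactory receptor 1 (GWHGABGR000138) averaged 0.176 ± 0.305 FPKM in male-labelled and 1140.0 ± 34.6 FPKM in female-labelled libraries. A partial odorant receptor (GWHGABGR013978) averaged 19.7 ± 4.66 FPKM in male-labelled libraries and was listed at 0 in female-labelled ones. Pheromone-degrading enzyme 1 (GWHGABGR011087), an esterase that breaks down acetate pheromones in a related silkmoth, Antheraea polyphemus, went the other way from PBP1 at 9.44 ± 0.833 FPKM in male-labelled and 0.487 ± 0.243 FPKM in female-labelled libraries (log2 fold change 2.82, limma adjusted p = 9.81e-06). Of 9 tested genes named chemosensory protein, carriers of another fold, 5 were higher and 2 lower in male-labelled libraries (all genes: 27.8% and 9.03%). After median-of-ratios rescaling the counts were 4 and 2 (all genes: 14.3% and 17.6%). The most abundant gene so named, chemosensory protein 7 (GWHGABGR001109), averaged 811 ± 4.7 FPKM in male-labelled and 377 ± 9.45 FPKM in female-labelled libraries. Sensory protein 2 (GWHGABGR001105) does not carry these words in its name and was left out of the list. Its means were far higher, at 48852 FPKM in male-labelled and 24268 FPKM in female-labelled libraries.

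The carrier genes stood out by level from the genes numbered around them. The table holds 21 other genes from 10 identifiers before GOBP1 to 10 after GWHGABGR012197, and their mean levels over 6 libraries did not exceed 67.7 FPKM. The 4 genes listed between GOBP1 and GOBP2 had means of at most 0.575 FPKM, and 1 of them passed the filter on low values. Of the 13 neighbours tested, 3 were higher and 1 lower in male-labelled libraries on the deposited scale, and 1 and 2 on the median-of-ratios scale, with a median of 0.07. That share lies near the 36.9% of all tested genes.

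The neighbour directly after GWHGABGR012197, a hypothetical protein (GWHGABGR012198), stood at 62.1, 62.1 and 59.4 FPKM in male-labelled libraries, against 74.6, 75.5 and 72.7 FPKM in female-labelled ones. Its log2 fold change was -0.28 (SE 0.0564, limma adjusted p = 0.00581). Directly before GOBP1, GWHGABGR012185, which has no name, averaged 62.3 ± 10.9 FPKM in male-labelled and 42.4 ± 6.59 FPKM in female-labelled libraries (log2 fold change 0.54, limma adjusted p = 0.023), and was not called after median-of-ratios rescaling. The largest change among the neighbours was that of GWHGABGR012183, also unnamed, at 2.02, 3.95 and 1.72 FPKM in male-labelled libraries against 0.737, 0.727 and 0.25 FPKM in female-labelled ones (log2 fold change 1.15, limma adjusted p = 0.0132), on 34 reads in all. No tested neighbour changed by more than that on the log2 scale.

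**Figure D5:**
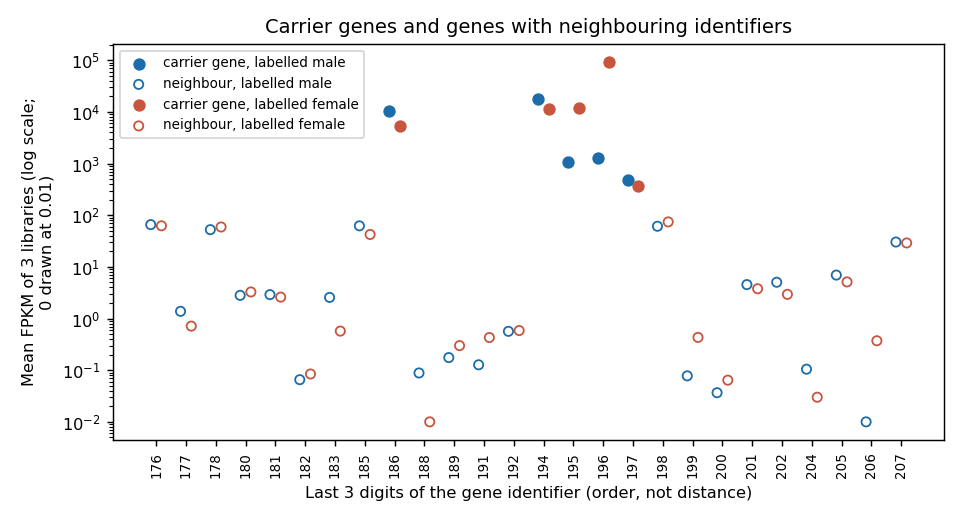
Mean FPKM of 3 libraries on a log axis for the 5 carrier genes (filled) and 21 genes with neighbouring identifiers (open), in identifier order, male-labelled in blue at the left and female-labelled in red at the right of each gene. The lowest carrier mean is 361 FPKM (GWHGABGR012197, female-labelled), and the highest neighbour mean is 74.2 FPKM (GWHGABGR012198, female-labelled).

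Likeness of pattern was measured as the root mean square difference between log2(FPKM + 1) profiles over the 6 libraries, each centred on its own mean, among 6577 other named genes with a mean of at least 5 FPKM. No gene came within 0.1 of PBP1. The nearest were a hypothetical protein (GWHGABGR000271, 0.213), listed at 0 in every male-labelled library and at 53.8 ± 1.67 FPKM in female-labelled ones, neuropeptide F receptor-like (GWHGABGR018783, 0.386) and cuticle protein 8-like (GWHGABGR004571, 0.403). For such genes near 0 the pseudocount of 1 FPKM bounds the change, so their likeness to PBP1 depends on it. Within 0.1 of PBP3 there was 1 gene, endocuticle structural glycoprotein ABD-4-like (GWHGABGR004497, 0.0686), at 43.6 ± 4.11 FPKM in male-labelled and 473 ± 15.9 FPKM in female-labelled libraries. It was followed by an uncharacterized protein (GWHGABGR005136, 0.114) and cuticular protein RR-2 motif 59-like (GWHGABGR004276, 0.134).

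The patterns of the other carriers were shared by many genes. Within 0.1 of GOBP1 there were 109 genes, nearest of them facilitated trehalose transporter Tret1-like (GWHGABGR013013, 0.0306), la-related protein 6 (GWHGABGR020341, 0.0337) and putative integumental esterase (GWHGABGR020545, 0.0367). Within 0.1 of GOBP2 there were 303, led by an uncharacterized protein (GWHGABGR006483, 0.0228), carcinine transporter (GWHGABGR011387, 0.027) and carboxylesterase 8 (GWHGABGR005108, 0.0301). Within 0.1 of GWHGABGR012197 there were 472, led by an ATPase ASNA1 homolog (GWHGABGR012149, 0.0155), peptidyl-prolyl cis-trans isomerase-like (GWHGABGR007062, 0.0218) and transcription factor Ken (GWHGABGR008758, 0.0327).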

How the data were processed

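Antennal mRNA of 3 libraries labelled male and 3 labelled female was made into libraries with a stranded mRNA kit, per the labels' protocols. The authors deposited FPKM per gene with best-hit names. The submitters' processing notes list R 3.2.0, Trimmomatic, HISAT2 and HTSeq and give no roles. The genome build is not given in the sources used here. The FPKM values step by whole reads, which gave back read numbers (within 0.01 read) and gene model lengths for 100% of 16458 genes, taking for each the shortest fitting length from 90 bases up.

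Genes with a mean of at least 0.5 FPKM were tested on log2(FPKM + 1) with limma 3.58.1 (R 4.3.3), using its trended variance, label as the only term, 2-sided tests and Benjamini-Hochberg adjustment at 0.05. This scale understates changes of low genes. The step was run on simulated data with few changed genes and no shift of scale built in between the labels. That run does not speak of the choice of scaling. The alternatives were other pseudocounts, filters and scalings, a replicate block, limma voom on recovered reads and each library left out. Ratios within a library were tested by exact permutation (scipy 1.17.1). Counting errors assume independent reads and cover counting error only. Near-identical copies could share reads.

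The named genes were the 5 members, the 3 named genes most like each in pattern, called neighbours with an absolute log2 fold change of at least 1, the most abundant odorant-binding and chemosensory protein, the odorant receptor with the largest change each way, every tested gene of the smaller pathway lists and the 3 most abundant genes of each label. GWHGABGR012185, GWHGABGR012198, antennal binding protein X and the genes with pheromone or doublesex annotations were added after their values were seen. Lists were matched by words in gene names or symbols, so the most abundant chemosensory protein is that of its list. The members and lists were chosen with earlier results of these data known.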

Additional observations from a re-analysis of the deposited data

How the results depend on the processing

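PBP1, PBP3, GOBP1 and GOBP2 kept their direction and their call in limma under all 15 alternatives each, with log2 fold changes (male-labelled minus female-labelled) of -6.44 to -6.003, -3.70 to -3.36, 0.73 to 1.21 and 0.34 to 0.78. GWHGABGR012197 lost its call after median-of-ratios rescaling (0.13, limma adjusted p = 0.0688). In these data that rescaling divided male-labelled values by 1.09 to 1.11 and female-labelled ones by 0.917 to 0.929. GWHGABGR012197 kept its call under the other alternatives. Without single libraries its change lay between 0.34 and 0.44 (limma adjusted p = 0.000354 to 0.00323). Counts of all genes called higher and lower in male-labelled libraries were 1655 and 2036 after median-of-ratios rescaling and 1643 and 1677 with quantile normalization. Of the neighbouring identifiers 2 were called with no filter on low values and 2 with quantile normalization, and 2 to 5 without single libraries, with 2 without female replicate 3, without male replicate 2 or without male replicate 3. As a share of recovered reads the 5 genes held 1.52% in male-labelled and 4.25% in female-labelled libraries, below their share of FPKM (2.3% and 9.01%). The 10 ratios kept their direction under all alternatives run, and with 1 library left out each gave p = 0.2 in the exact permutation test. Ratios of recovered reads, 1 of these alternatives, differ from FPKM ratios by a fixed length factor. Their difference between labels could therefore not change. The pseudocount of 0.1 FPKM is small beside the levels of these genes and could hardly move it either. Libraries with the same replicate number did not deviate together (Pearson r across genes 0.005, 0.006 and -0.004), and not every library correlated best with its own number. The replicate block gave 2891 genes called higher and 954 lower in male-labelled libraries, and the fold changes of the 5 genes stayed called. The fewest reads of a member in a library were 1881, for GWHGABGR012197, while 8 of the 21 neighbours were too low to test.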
